A study of Homo sapiens with 2 samples.

Results

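Small nucleolar RNA host genes were compared between 2 libraries of SAS, a human tongue squamous carcinoma line long kept in culture. The host genes were all rows of the deposited gene table whose symbol is SNHG followed by a number, together with GAS5, ZFAS1, DANCR and EPB41L4A-AS1, which made 32 of 61806 genes. The control library came from cells transfected with a negative control siRNA and the knockdown library from cells transfected with a single siRNA against COL17A1, labelled si2. Both were harvested 48 hours after lipid transfection, both carry the genotype label wild type, and both are polyadenylated RNA. COL17A1 encodes collagen XVII, an anchor of basal epithelial cells, and the contrast addresses how RNA levels differ once it is depleted. Each group held 1 library and 1 siRNA, so no difference has a replicate check, no p-value is given, and an effect of this siRNA sequence cannot be told apart from one of reduced COL17A1.

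Small nucleolar RNAs (snoRNAs) are short guide RNAs that direct chemical modification of ribosomal RNA. Box C/D snoRNAs guide ribose methylation, box H/ACA snoRNAs guide pseudouridylation, and the related small Cajal body RNAs (scaRNAs) guide the same changes in spliceosomal RNAs. Most human snoRNAs lie inside introns and are cut out of the excised intron, so a host gene must be transcribed and spliced to release them. The spliced exons of many non-coding hosts are exported, bound by ribosomes and degraded by nonsense-mediated decay (NMD), and several of these genes begin with the 5′ terminal oligopyrimidine (TOP) tract that also marks messenger RNAs of the translation machinery. A polyadenylated library measures the spliced exons, not the snoRNAs.

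The letters of the gene starts are shown because the TOP tract is the feature by which host genes are related to ribosomal protein genes. RefSeq starts on GRCh38.p14 were matched by symbol for 28 of the 32 hosts. Each line gives 10 bases before and 20 bases from the start on, on the strand of the gene, and capitals mark a run that begins with C within 5 bases of the start and goes on with at least 4 Cs or Ts.
SNHG16, chr17:76557754-76557783, plus strand: gggcggtctcgcgttCTTTTCgaggtcggc
SNHG32, chr6:31834906-31834935, plus strand: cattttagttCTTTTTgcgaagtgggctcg
ZFAS1, chr20:49278632-49278661, plus strand: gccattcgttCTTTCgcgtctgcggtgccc
SNHG5, chr6:85678714-85678743, minus strand: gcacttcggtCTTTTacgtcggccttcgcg
SNHG19, chr16:2155339-2155368, minus strand: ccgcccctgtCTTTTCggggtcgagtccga
SNHG7, chr9:136728165-136728194, minus strand: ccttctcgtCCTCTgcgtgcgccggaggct
DANCR, chr4:52712384-52712413, plus strand: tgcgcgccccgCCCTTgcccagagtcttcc
SNHG1, chr11:62855866-62855895, minus strand: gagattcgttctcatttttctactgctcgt
SNHG11, chr20:38446644-38446673, plus strand: gctctaggctgcagccgcgcccccagccgt
In SNHG32, ZFAS1, SNHG5 and SNHG19 the run began at the start itself. No such run lay at the annotated start of SNHG1, whose window holds a T-rich stretch broken by an A, nor at that of SNHG11. Read on the gene strand only, 13 of the 28 hosts held the run, 46.4%, beside 21.1% of all 27305 RefSeq starts and 11 of 13 matched starts of a list of TOP messenger RNAs without ribosomal protein genes. The stricter form, with the run at the first base, was found in 7 of 28 hosts, 25%, beside 4.04% of all starts. This motif rule was set after the data had been seen.

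The control library held 15980152 counts and the knockdown library 21601195, on 21955 and 22618 genes. COL17A1 itself had 3116 and 411 counts, or 198 and 18.8 CPM (counts scaled to a common library size), 10.5-fold less in the knockdown library. Epithelial identity was checked with 10 markers, all of which passed 1 CPM, with summed levels of 4438 CPM in control and 5128 CPM in knockdown cells. Of 7 fibroblast markers 1 passed, COL1A1 with 15 and 32 counts, COL1A2 and COL3A1 were at 0, and the sum was 1.46 and 2.47 CPM. Of 7 leukocyte markers 1 passed, CD14 with 47 and 114 counts, and PTPRC, CD3E and MS4A1 were at 0. The share of mitochondrial counts was 0.777% in control and 0.988% in knockdown cells. The part of these values in the differences below was not tested. In bulk RNA a smaller share of cells that express a gene and less RNA per cell cannot be told apart.

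A few host genes carried most of the counts. Together they took 28480 counts in the control library, 0.178% of the total with an exact Clopper-Pearson 95% interval of 0.176% to 0.180%, and 42748 in the knockdown library, 0.198% with an interval of 0.196% to 0.200%. The 5 hosts with the most counts in each library were SNHG29, SNHG1, GAS5, ZFAS1 and SNHG32, which held 64.9% and 67.3% of these counts. Long non-coding genes other than hosts took 1.04% of all counts in the control and 1.13% in the knockdown library. Their share was thus also larger in the knockdown library. Of the 32 hosts 25 had a mean of at least 1 CPM and are called tested below. Members under this filter were SNHG9 with 4 and 11 counts, SNHG31 with 3 and 0, SNHG25 with 0 and 2, SNHG22 with 0 and 1, and SNHG18, SNHG27 and SNHG28 with 0 in both libraries. A count of 0 allows up to 0.190 CPM in the control and 0.137 CPM in the knockdown library, taking 3 counts as the limit, and for these 7 genes no difference was detectable at this depth.

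Per length, the same 4 hosts led in both libraries, and SNHG16 changed its place most among the others near the top. The deposited FPKM, the count per kilobase of exon scaled to library size, was highest for SNHG32 at 84.4 in the control and 96.9 in the knockdown library. It was 52.7 and 53.4 for SNHG1, 51.9 and 62.1 for SNHG29, and 35.3 and 39.2 for GAS5. SNHG16 had the fifth place in the control library with 22.8 FPKM and rank 11 in the knockdown library with 8.58 FPKM. SNHG14 was lowest of the tested hosts at 0.11 and 0.09 FPKM, which rests on an exonic size of 122609 bases, the sum of all its annotated exons. Sizes of the other tested hosts were far smaller but still exceeded usual transcript lengths, as in GAS5 with 4932 bases of exon and a median GENCODE 29 transcript of 688 bases, so FPKM understates the level of the spliced RNA.

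**Figure D1:**
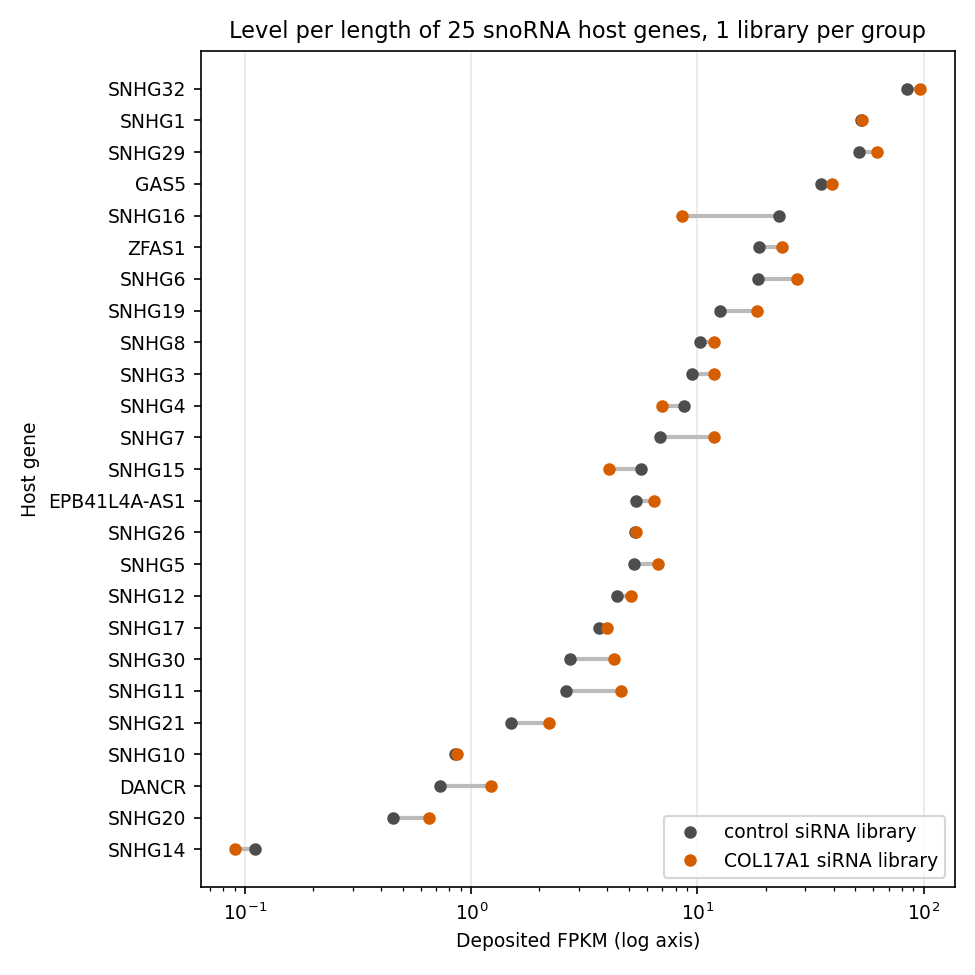
Deposited FPKM on a log axis for the 25 tested host genes, ordered by their level in the control library, with a point for each of the 2 libraries. SNHG16 dropped from 22.8 to 8.58 FPKM, and the points of SNHG1 and SNHG26 nearly coincide.

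SNHG16 was the only tested host with a level at least 1.5-fold below that in control cells, and SNHG11, SNHG7, DANCR and SNHG30 were at least 1.5-fold higher. The differences are log2 ratios of counts scaled by library size, knockdown over control. Each is followed in brackets by its exact 95% interval for counting error, also as log2. A gene counts as higher or lower at 1.5-fold with an interval that excludes a ratio of 1, which is a log2 ratio of 0. By this rule 4 of 25 hosts were higher, 1 was lower and 20 were neither. The rule sets the ratio itself against 1.5-fold, and the intervals of SNHG11, DANCR and SNHG30 also reach below it. Among all 13375 tested genes 12.2% were higher and 11.7% lower, and among 953 tested long non-coding genes 19.3% were higher and 9.86% lower. The 16% of hosts that were higher is near both shares, so the count of higher hosts does not set them apart, and the 4% that were lower rests on 1 gene. At 2-fold 0 hosts were higher, beside 3.04% of all tested genes, and SNHG16 alone was lower, beside 3.6%. At any fold, 14 hosts had an interval above a ratio of 1, 4 below 1 and 7 around it, where 33.1% and 32.4% of all tested genes lay above and below.

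The median of the 25 hosts was 0.22, beside 0.03 for all tested genes and 0.18 for all tested long non-coding genes. Ratios above 0 were found in 18 of 25 hosts, 72%, in 52% of all tested genes and in 61.4% of long non-coding genes. Summed over hosts, scaled CPM was 1806 and 1952 in the control and knockdown libraries, and 1673 and 1904 without SNHG16. Long non-coding genes other than hosts summed to 10509 and 11155 CPM. The lower and upper quartiles were -0.02 and 0.49 for the hosts and -0.25 and 0.57 for long non-coding genes.

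**Figure D2:**
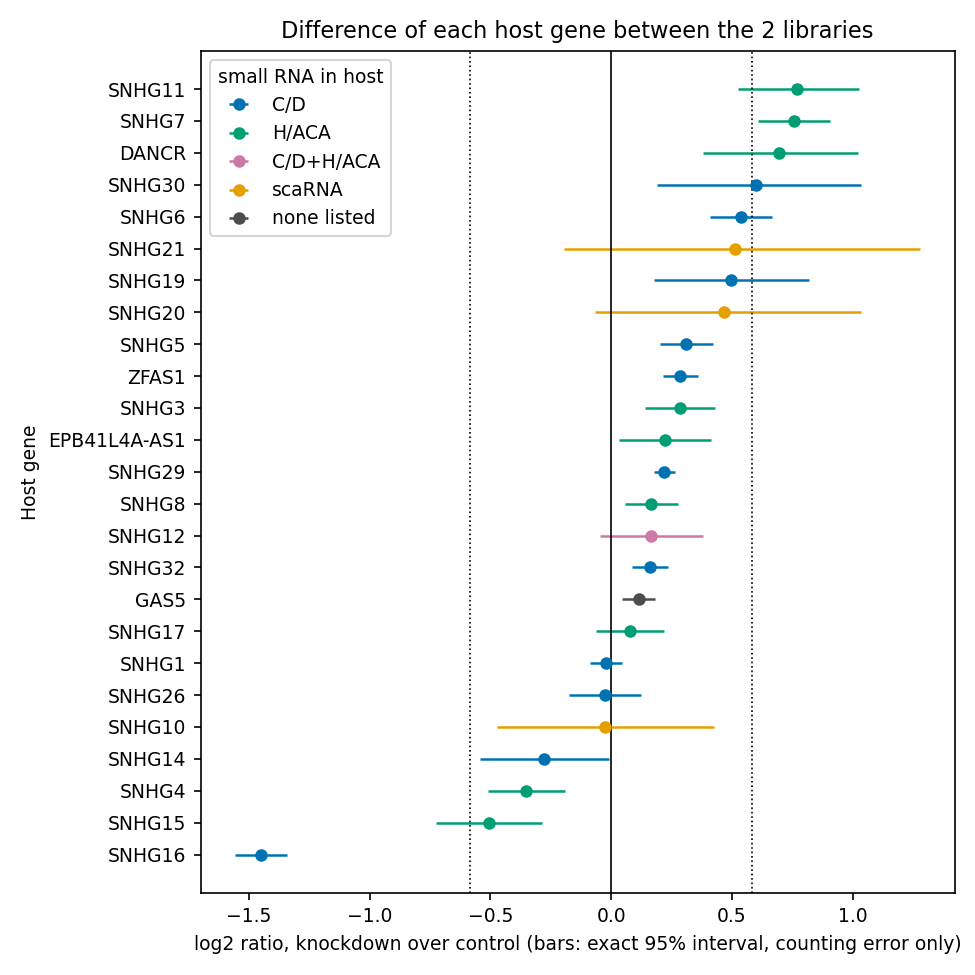
Log2 ratio of each tested host gene, knockdown over control, with its exact 95% interval as a bar, coloured by the class of small RNA the table lists inside it; dotted lines mark 1.5-fold. SNHG16 at -1.45 stands apart from the other 24 hosts, which lie between -0.51 and 0.77.

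SNHG16 (ENSG00000163597, GRCh38 chromosome 17, 76557727 to 76670985, plus strand, non-coding) carries the 3 box C/D snoRNAs SNORD1A, SNORD1B and SNORD1C. Its counts were 2108 in control and 1071 in knockdown cells, although the latter library was the deeper one, or 134 and 48.9 CPM after scaling. The log2 ratio was -1.45 [-1.56 to -1.34], 2.73-fold lower, and the gene fell from 7.40% to 2.51% of all host gene counts. From the lowest ratio upward SNHG16 ranked 149 of 13375 tested genes and 15 of 953 long non-coding genes. It overlaps only loci with 0 or 1 count per library on its strand, and ST6GALNAC2, a sialyltransferase gene on the opposite strand, was at 0.08 [-0.33 to 0.51].

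The snoRNAs of SNHG16 are shown because they are what the lower host would release; their own level cannot be read from these libraries, where each had 0 counts. Their sequences come from GENCODE 29, and capitals mark the letters TGATG of box C, searched in the first 20 bases, and CTGA of box D, searched in the last 12, on the strand of the gene.
SNORD1A, chr17:76561634-76561705, plus strand: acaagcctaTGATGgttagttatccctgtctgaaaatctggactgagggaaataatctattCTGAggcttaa
SNORD1B, chr17:76561109-76561192, plus strand: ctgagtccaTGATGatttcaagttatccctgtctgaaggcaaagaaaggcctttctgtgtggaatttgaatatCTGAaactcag
SNORD1C, chr17:76558791-76558868, plus strand: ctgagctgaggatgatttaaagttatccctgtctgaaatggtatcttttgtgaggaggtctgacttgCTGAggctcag
The letters TGATG were not found in that window of SNORD1C.

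Other box C/D hosts differed little or were higher. SNHG30, the host of SNORD7, had 71 and 150 counts and a ratio of 0.60 [0.19 to 1.03], just past 1.5-fold, and SNHG6, the host of SNORD87, had 747 and 1504 counts and 0.54 [0.41 to 0.66], just under it. SNHG19, the host of SNORD60, stood at 124 and 243 counts and 0.49 [0.18 to 0.82]. Counts of SNHG5, the host of SNORD50B, were 1052 and 1813, a ratio of 0.31 [0.20 to 0.42]. These 4 genes had higher scaled levels in the knockdown library, 1 of them at least 1.5-fold. With adjustment for exonic size and abundance SNHG19 was at 0.08 and SNHG30 at 0.31, and with GC content as well they were at -0.02 and 0.50.

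ZFAS1, which carries the SNORD12 group and is transcribed beside the zinc finger gene ZNFX1, had 2496 and 4228 counts and a ratio of 0.29 [0.21 to 0.36]. SNHG29, the host of SNORD49A, SNORD49B and SNORD65 and the most counted host, had 7423 and 12008 counts and 0.22 [0.18 to 0.26]. SNHG32, typed protein-coding in GENCODE 29, had 2429 and 3771 counts and 0.16 [0.09 to 0.24]. These abundant hosts have narrow intervals above a ratio of 1 and small differences.

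SNHG1, the host of SNORD22, SNORD25 to SNORD28 and SNORD30, was equal within counting error, with 3350 and 4584 counts and a ratio of -0.02 [-0.09 to 0.04]. SNHG26, the host of SNORD93, was as close to 0, with 633 and 864 counts and -0.03 [-0.17 to 0.13]. SNHG14, the long imprinted transcript that carries the SNORD115 and SNORD116 clusters and runs antisense to UBE3A, had 218 and 250 counts and -0.28 [-0.54 to -0.01]. Its sign turned with adjustment for exonic size and abundance, to 0.82, and with GC content as well, to 0.57. GAS5, a growth arrest transcript known as a host of several box C/D snoRNAs, whose snoRNAs were not analysed here, had 2783 and 4181 counts and 0.11 [0.04 to 0.18]. Of the 11 tested hosts with listed C/D snoRNAs alone, 1 was higher and 1 was lower. This is 9.09% each, beside 12.2% and 11.7% of all tested genes, and the median was 0.22.

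Of the 9 tested hosts of box H/ACA snoRNAs alone 3 were higher and none was lower at 1.5-fold, with a median of 0.22. Their 33.3% stands beside 12.2% of all tested genes and 19.3% of long non-coding genes and rests on 3 genes, of which SNHG11 alone was higher when ratios were centred on long non-coding genes. SNHG11 (ENSG00000174365, chromosome 20, 38446343 to 38450940, plus strand), the host of SNORA60 and SNORA71E, had 190 and 451 counts, or 12.1 and 20.6 CPM, and the highest ratio of the tested hosts at 0.77 [0.53 to 1.03]. SNHG7 (ENSG00000233016, chromosome 9, 136721366 to 136728184, minus strand), the host of SNORA17A and SNORA17B, had 535 and 1255 counts, or 33.9 and 57.3 CPM, and a ratio of 0.76 [0.61 to 0.91]. DANCR (ENSG00000226950, chromosome 4, 52712325 to 52723623, plus strand), known to hold epidermal progenitors undifferentiated, carries SNORA26. It had 119 and 268 counts, or 7.55 and 12.2 CPM, and a ratio of 0.69 [0.38 to 1.02]. The intervals of these 3 genes overlap each other.

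SNHG17, which like SNHG11 carries snoRNAs of the SNORA71 family and starts 10934 bases from it on the other strand, had 701 and 1028 counts and 0.08 [-0.06 to 0.22]. Its interval does not overlap that of SNHG11. SNHG3, the host of SNORA73A and SNORA73B, had 620 and 1048 counts and 0.28 [0.14 to 0.43], EPB41L4A-AS1, the host of SNORA13, 368 and 596 counts and 0.22 [0.03 to 0.41], and SNHG8, the host of SNORA24, 1088 and 1695 counts and 0.17 [0.06 to 0.28]. Below 0 stood SNHG15, the host of SNORA9, with 353 and 345 counts and -0.51 [-0.73 to -0.29], and SNHG4, the host of SNORA74A and SNORA74D, with 621 and 676 counts and -0.35 [-0.51 to -0.19]. Neither reached 1.5-fold.

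SNHG12 carries snoRNAs of both classes and had 301 and 469 counts and a ratio of 0.17 [-0.05 to 0.38]. Among hosts of scaRNAs 3 of 4 were tested, and all 3 had intervals that include a ratio of 1. SNHG10 had 74 and 101 counts and -0.03 [-0.47 to 0.43], SNHG20 44 and 85 counts and 0.47 [-0.07 to 1.04], and SNHG21 25 and 50 counts and 0.51 [-0.19 to 1.28]. The intervals of SNHG20 and SNHG21 also reach past 1.5-fold higher, so that these counts cannot place them on either side of it.

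**Figure D3:**
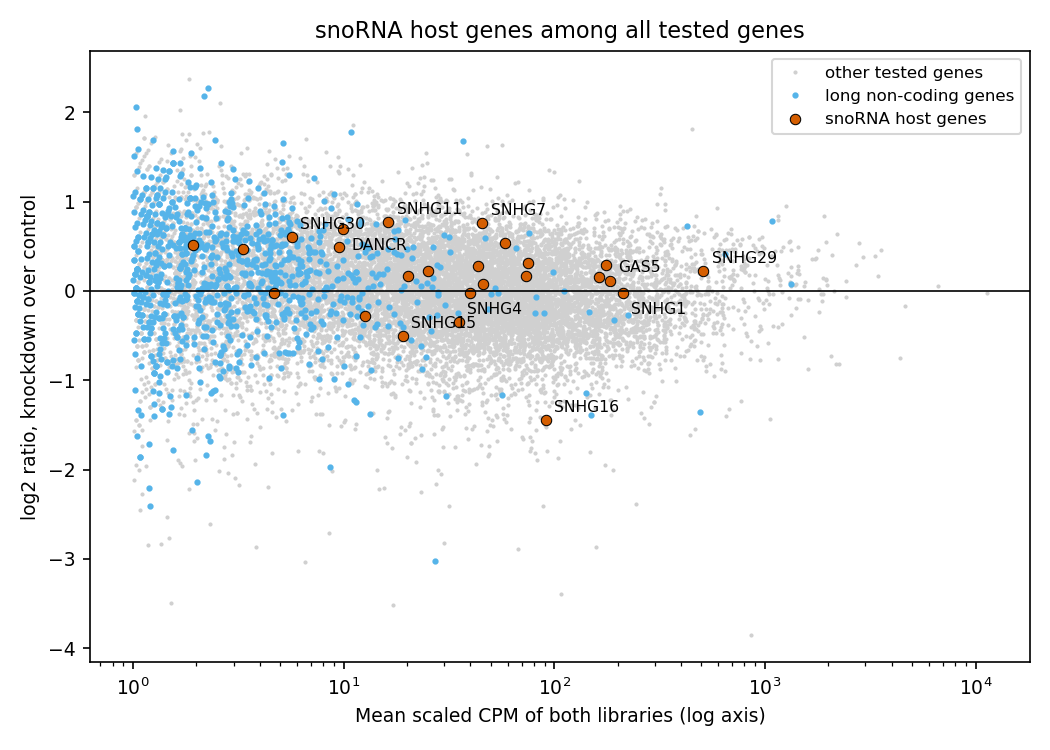
Log2 ratio against mean scaled CPM on a log axis for all 13375 tested genes, with long non-coding genes in blue and the 25 host genes in orange. SNHG16 lies at -1.45 below the other hosts, while SNHG29, the most abundant host, lies at 0.22.

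The small RNAs themselves were almost unseen. Of 553 annotated snoRNA and scaRNA genes 70 had any count, with 217 counts in all in control and 191 in knockdown cells. The only ones that passed 1 CPM were SNORD17, with 41 and 15 counts, and SNORD14A, with 10 and 30. Within hosts that differed by 1.5-fold no small RNA had a count, and the most counted one inside any tested host was SNORD93 in SNHG26, with 12 and 6. Host differences therefore say nothing of snoRNA levels in these cells.

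Ratios on both sides of 0 were found among tested hosts with the TOP-like run and among those without it. The 11 tested hosts with the run had ratios from -1.45 to 0.76 around a median of 0.17, and the 12 without it from -0.28 to 0.77 around 0.22. The lowest host, SNHG16, holds the run, as do the higher SNHG7 and DANCR, whereas the higher SNHG11 and SNHG30 do not. The rule reads a single RefSeq start per gene. Some lie far from the deposited gene start, at 1259 bases in SNHG12, 1927 in SNHG20 and 154975 in SNHG14. SNHG1 and GAS5 are among the hosts without the run. The RefSeq start of GAS5 lies 163 bases upstream of the deposited one, so the bases read for GAS5 fall outside the deposited gene. Whether the run goes with the difference was not tested.

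The 7-base words GCTAATG and TCGGAGA had been singled out in earlier work on these same data, so their presence is described here and supports nothing. Spliced GENCODE 29 transcripts of SNHG16, SNHG15 and SNHG12 hold GCTAATG on the sense strand, 3 of 25 tested hosts or 12%, beside 12.6% of tested long non-coding genes and 19.9% of tested genes. The sites follow with the word in capitals.
SNHG16, chr17:76563501-76563527, plus strand: tttgtgatctGCTAATGggttgccacc
SNHG15, chr7:44983741-44983767, minus strand: gagtcacctgGCTAATGaaaagtattt
SNHG15, chr7:44984812-44984838, minus strand: agaggaaggtGCTAATGttgaacacct
SNHG12, chr1:28578602-28578628, minus strand: acaacagcatGCTAATGcaaaaaatta
The word stood in 3 of 8 transcripts of SNHG16, in 1 of 10 transcripts at each site of SNHG15 and in 13 of 17 transcripts of SNHG12. These hosts had ratios of -1.45, -0.51 and 0.17, so the first and second are the lowest tested hosts and the other is above 0. Over all tested genes the median was -0.28 with the word and 0.09 without it, and over long non-coding genes -0.01 and 0.20. Genes with the word have longer transcripts, with medians of 1108 and 990 bases over all tested genes. Over the tested hosts the medians were 1090 bases with the word and 748 without it. The part of length was not tested. Of tested hosts only GAS5, at 0.11, holds TCGGAGA, in 1 of 29 transcripts. The median was 0.03 over tested genes with TCGGAGA and 0.03 without it, and 0.34 and 0.17 over long non-coding genes.

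Host genes and their neighbours were compared pair by pair. Pairs were formed where a tested host overlaps a tested gene or starts within 1 kb of one on the other strand, and 13 pairs of 12 hosts are reported. In 8 of them the intervals of host and neighbour did not overlap, with the host above its neighbour in 4 and below it in 4. In 5 the intervals lay on opposite sides of 0. SNHG14, UBE3A and ZBTB37 have bounds close to 0, at -0.01, 0.01 and -0.04, so the count of 5 depends on the scaling. The sign of SNHG14 also turned with adjustment for exonic size and abundance. Among all tested genes 33.1% had an interval above a ratio of 1 and 32.4% below it. The share of such pairs among other adjoining genes was not computed. The counts of 8 and 5 therefore do not set hosts and their neighbours apart from other gene pairs. ZFAS1 at 0.29 lies opposite ZNFX1, an RNA helicase gene with 1982 and 1918 counts at -0.52 [-0.61 to -0.43], the starts being 248 bases apart. GAS5 at 0.11 lies opposite ZBTB37, a zinc finger gene, at -0.35 [-0.67 to -0.04], the starts being 800 bases apart. SNHG1 and SLC3A2, a subunit of amino acid transporters whose start is 51 bases away, were both near 0, at -0.02 and 0.00 [-0.04 to 0.05].

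SNHG3 lies within RCC1, a regulator of the GTPase Ran, on the same strand, and the pair was at 0.28 and -0.29 [-0.37 to -0.21]. SNHG20 shares its strand with SEC14L1, a lipid-binding protein gene at -0.57 [-0.67 to -0.47], and SNHG14 with SNRPN, a spliceosome protein gene with 199 and 446 counts at 0.69 [0.45 to 0.94]. On the other strand of SNHG14, UBE3A, a ubiquitin ligase gene, was at 0.07 [0.01 to 0.13]. SNHG4 was at -0.35 and the chaperone regulator gene SIL1 at 0.13 [-0.07 to 0.34]. SNHG10 at -0.03 and the glutaredoxin gene GLRX5 at 0.44 [0.35 to 0.54] had intervals that overlap, as did SNHG19 and the signalling adaptor gene TRAF7 at 0.11 [0.01 to 0.20], SNHG12 and TRNAU1AP, a selenoprotein synthesis gene, at -0.09 [-0.30 to 0.12], and DANCR and ERVMER34-1 at -0.36 [-1.20 to 0.48]. The strand setting of the counting is not given in the sources used here, so counts of overlapping genes, and of SNHG3, SNHG14 and SNHG20 above all, are uncertain.

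**Figure D4:**
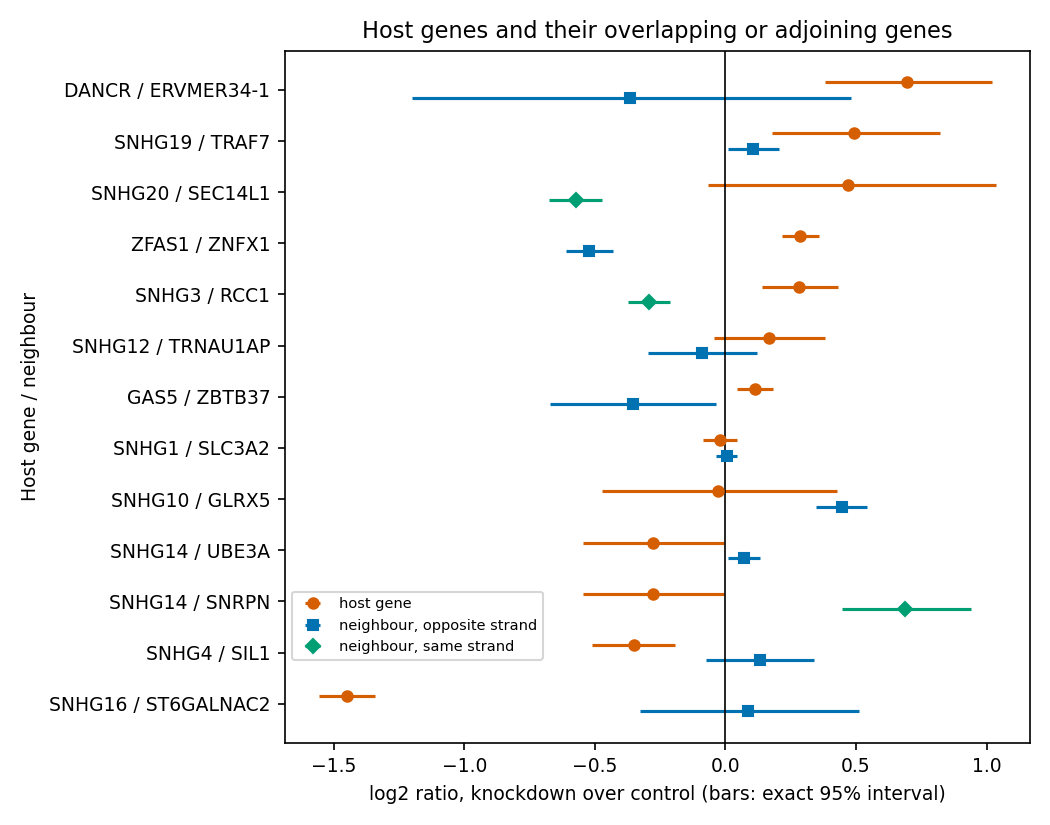
Log2 ratios, knockdown over control, of 13 pairs of a host gene and an overlapping or adjoining gene, with exact 95% intervals as bars. ZFAS1 and GAS5 lie above their opposite-strand neighbours ZNFX1 and ZBTB37, and SNHG16 lies below ST6GALNAC2.

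Protein-coding genes that carry snoRNAs were centred below the tested host genes described above. Of 156 such genes without ribosomal protein genes, found by coordinates on their strand, 136 were tested. Of these 9 were higher and 36 lower, or 6.62% and 26.5% beside 11.5% and 11.6% of all tested protein-coding genes. Their median was -0.27 beside 0.22 for the tested host genes above. SNHG32, typed protein-coding, meets the rule of both lists. TSR1, a factor of small ribosomal subunit maturation, was at -1.87 [-1.97 to -1.76] with 2585 and 984 counts. The deubiquitinase gene USP34 was at -1.82, the centrosome gene CEP295 at -1.34 and the chromatin remodeller gene EP400 at -1.21. With ribosomal protein genes included 17 of 162 were higher and 36 lower, around -0.14. The difference between these lists was not tested.

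Genes of the machinery that snoRNAs and host transcripts depend on were mostly within 1.5-fold. Of 21 genes for proteins of snoRNA particles and their assembly none was higher and 3 were lower, and the median was 0.05. The 14.3% that were lower is near the 11.7% of all tested genes, of which 12.2% were higher. The assembly factor gene ZNHIT6 was at -0.88 [-0.97 to -0.80], DKC1, the pseudouridine synthase of H/ACA particles, at -0.69 [-0.76 to -0.61], and NOP58, a core protein of C/D particles, at -0.67 [-0.74 to -0.61]. NOLC1, a chaperone of these particles, was at 0.07. Of 22 genes for factors of nonsense-mediated decay and the exon junction none was higher and 3 were lower, with the median at -0.27. The 13.6% that were lower is again near 11.7%. These were the endonuclease gene SMG6 at -0.91 [-1.09 to -0.74], the exonuclease gene XRN1 at -0.83 [-0.93 to -0.72] and the kinase gene SMG1 at -0.71 [-0.79 to -0.62], and ETF1, a translation release factor, stood at -0.34. None of 7 messenger RNAs known as substrates of the pathway was 1.5-fold apart, beside 12.2% higher and 11.7% lower among all tested genes. With so few genes this count does not set them apart. Their median was 0.01, with ATF4, a stress transcription factor, at 0.14, UPP1, uridine phosphorylase, at -0.32, the stress gene GADD45A at -0.53 and TBL2 at 0.26.

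Of 20 TOP messenger RNAs other than those of ribosomal proteins named as such 4 were higher and 0 lower, 20% and 0% beside 12.2% and 11.7% of all tested genes, around a median of 0.11. Among the higher ones were FAU, which encodes a ribosomal protein fused to a ubiquitin-like domain, at 0.79, the initiation factor gene EIF3F at 0.63, and EEF1G, a subunit of an elongation factor, with only 17 and 50 counts at 1.06 [0.26 to 1.97]. FAU and EEF1G overlap other annotated loci, and genes of this kind have processed pseudogenes, so these counts are uncertain. A list of 12 genes held LARP1 and the mTOR complex 1 route, which control TOP messenger RNAs, together with LARP4 and LARP4B. In it 1 was higher and 2 were lower, 8.33% and 16.7% beside 12.2% and 11.7% of all tested genes. The translation repressor gene EIF4EBP1 was at 0.87 [0.75 to 0.98], LARP4B and LARP4, RNA-binding proteins, at -0.63 and -0.62, and LARP1, which binds the TOP tract, at -0.42 [-0.46 to -0.38].

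**Figure D5:**
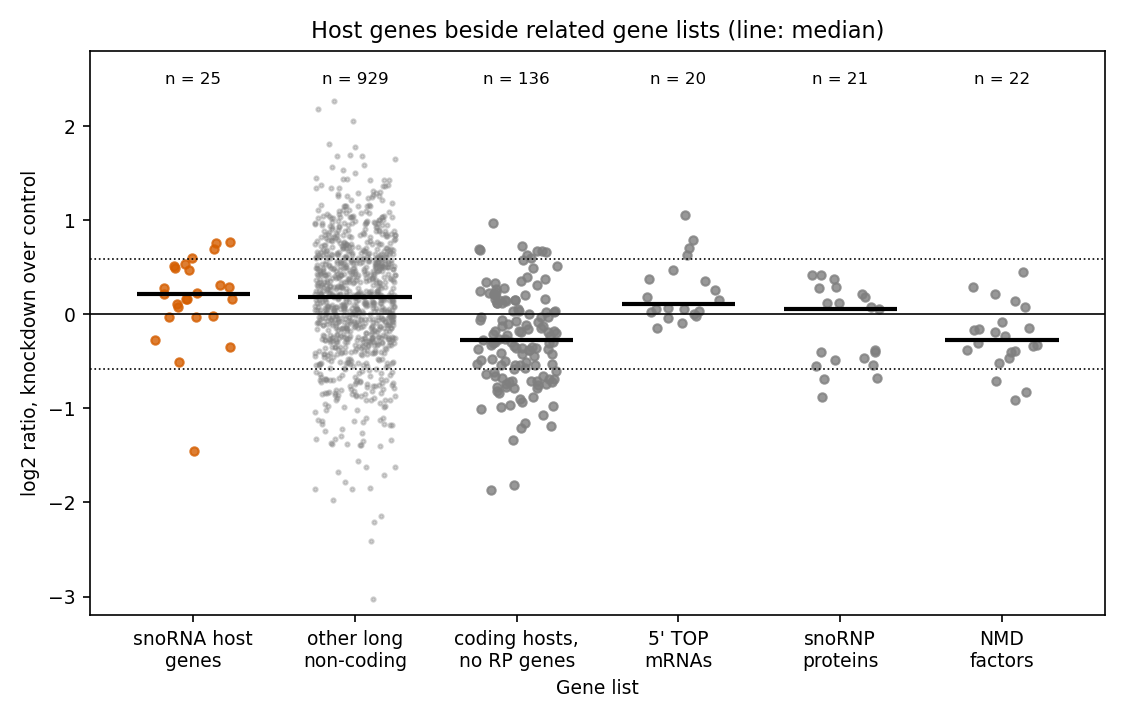
Log2 ratio, knockdown over control, of each tested gene in 6 lists, with a line at the median and dotted lines at 1.5-fold. The medians were 0.22 for snoRNA host genes, 0.18 for other long non-coding genes, -0.27 for coding hosts without ribosomal protein (RP) genes, 0.11 for TOP messenger RNAs, 0.05 for snoRNP proteins and -0.27 for NMD factors.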

How the data were processed

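Polyadenylated RNA of SAS cells was sequenced in 2 libraries, grouped by the treatment label. The authors deposited raw counts per gene, not normalized, and FPKM values per the file headers, which for 100% of genes lay within 0.0051 of the count divided by exonic size and library total. Per the submitters' processing notes STAR, HISAT2 and edgeR were used with hg38 or GRCh38, without stated roles. How reads were assigned to genes, and with which strand setting, is not given in the sources used here.

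Scaling used edgeR 4.0.16 TMM factors on the counts (0.987 and 1.01). The log2 ratio, knockdown over control, used 0.5 added to each count. Exact Clopper-Pearson 95% intervals of the ratio were computed from both counts; they and the limits for 0 counts cover counting error only, since reads are not independent molecules. A gene was tested where its mean reached 1 CPM. Gene types and transcripts came from GENCODE 29 (99.1% of tested genes matched by identifier), starts from RefSeq. Small RNAs and neighbours were found by coordinates in the table. Every tested host is named; of other lists, up to 4 genes at least 1.5-fold apart, ranked by how far the interval bound nearest to 1 lay from it, else the most abundant; some genes this rule names are not reported here. Members and lists were chosen with earlier results of these data known. Steps were tested on simulated data. Other software was R 4.3.3, DESeq2 1.42.0, Python 3.11.15, scipy 1.17.1, numpy 2.4.6, matplotlib 3.10.9 and pandas 2.3.3. Alternatives changed scaling, unit, offset, filter, fold and adjustments.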

Additional observations from a re-analysis of the deposited data

How the results depend on the processing

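SNHG16 stayed at least 1.5-fold lower in every alternative tried, with log2 ratios from -1.63 to -1.35, and SNHG11 at least 1.5-fold higher, from 0.59 to 0.81. By the 2-fold rule 0 hosts were higher and 1 was lower, beside 3.04% and 3.6% of all tested genes. The 4 higher and 1 lower hosts became 4 and 2 after adjustment for exonic size and abundance, where SNHG15 at -0.59 was lower, SNHG14, at -0.28 before, was higher at 0.82, and SNHG30 was no longer counted. They became 2 and 1 with GC content as well, where SNHG7 was at 0.43 and DANCR at 0.74. When ratios were centred on long non-coding genes they became 1 and 2. This shifted the median of all genes to -0.15 and put the host median at 0.040, SNHG7 at 0.58, DANCR at 0.51 and SNHG15 at -0.69. The shares of all tested genes moved as well, from 12.2% higher and 11.7% lower. In these settings, in the same order, they were 9.14% and 10.3%, 8.1% and 9.02%, and 6% and 19.6%. SNHG30, near the threshold, was under it with DESeq2 size factors and with an offset of 2. This left 3 higher hosts, where 11.4% and 12% of all tested genes were higher. Signs also turned for hosts near 0, among them SNHG32, from 0.16 to -0.04 and -0.06 under the adjustments, and GAS5, from 0.11 to -0.07 when centred on long non-coding genes. The host median was otherwise between 0.19 and 0.27. Why these adjustments moved the counts was not tested. No paired analysis was possible because each group holds 1 library with the same replicate number, and no library could be left out. At 25 to 50 counts, as in SNHG21, differences of 1.5-fold lie within counting error.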

Other observations

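Among 17 tested long non-coding genes at least as abundant as SNHG16, SNHG16 had the lowest ratio, at -1.45 [-1.56 to -1.34], but did not stand alone, as another gene was at -1.39 [-1.48 to -1.31] and LNCAROD at -1.14 [-1.22 to -1.06]. NORAD, a long cytoplasmic RNA that binds Pumilio proteins and is no snoRNA host, was at -1.35 [-1.40 to -1.31] with 11140 and 6058 counts. In the same set GAS5, SNHG1, SNHG29 and ZFAS1 lay between -0.02 and 0.29, and UCA1, a carcinoma-associated RNA, was at 0.72 with 5066 and 11601 counts. These genes were chosen after their values were seen.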
